A study of Mus musculus with 8 samples.

Results

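The comparison set livers of mice that had been given an overdose of APAP and then MSCs against control livers, over all genes measured. It took the 3 libraries labelled APAP_MSC and the 2 labelled CTRL, 5 of the 8 libraries of the series, and asked which transcripts still differed from control liver at 24 h. APAP_MSC mice were of the C57 strain. They received APAP, usually read as acetaminophen, at 400 mg/kg by intraperitoneal injection and, after 4 h, MSCs, usually read as mesenchymal stem or stromal cells, through the tail vein. The livers were collected at 24 h. The 3 APAP_PBS libraries come from C57 mice given the same dose of APAP with PBS, a salt solution, in place of cells. They are set beside the comparison where it helps to read it. CTRL livers, also from C57 mice, are named only as controls. The treatment text of all 8 samples is the same, so CTRL is read as liver without APAP from its group name, and whether CTRL mice received PBS is not stated. The source and species of the MSCs, and the age and sex of the mice, are not stated. No label ties a library to an animal, so each p-value below reflects only how far these libraries vary, part of which may be technical.

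Acetaminophen in excess is turned by cytochrome P450 enzymes of hepatocytes into a reactive product that uses up glutathione and binds proteins, mitochondrial ones among them. Hepatocytes around the central veins, which hold most of these enzymes, are the ones injured. The liver is also the main source of plasma proteins, and during injury or inflammation hepatocytes are known to shift secretion towards the acute phase proteins under IL-6 and IL-1. MSCs are stromal cells that are often given for their effects on inflammation.

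Messenger RNA was selected on oligo(dT) beads and sequenced, and each library held between 16261191 and 24516470 counts. Levels are given below as CPM, counts scaled to a common library total after TMM normalization, and differences as the log2 fold change of APAP_MSC over CTRL ± its standard error. A gene was called when its adjusted p in edgeR's quasi-likelihood test, corrected over all 12722 genes tested, was under 0.05. Hepatocyte transcripts dominated all libraries: 16 hepatocyte markers, albumin among them, summed to between 135900 and 147300 CPM in APAP_MSC and to 170500 and 152500 CPM in CTRL. APAP_MSC replicate 2 stood apart from the other APAP_MSC libraries. On the first principal component of all 8 libraries, which held 45% of the variance, APAP_MSC replicates 1 and 3 lay at 13.5 and 22.9. The 3 APAP_PBS libraries lay between 21.6 and 34.3, the CTRL libraries at -46.1 and -54.5, and APAP_MSC replicate 2 between them at -14.4. CTRL replicate 1 differed from the others in makeup, with 26.2% of its counts in its 10 most abundant genes, against 19.8% to 22.9% elsewhere.

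In livers of APAP_MSC mice 321 genes, or 2.52% of those tested, were called higher than in CTRL, and 422, or 3.32%, were called lower. At least 2-fold differences were called for 133 genes that rose (1.05%) and 125 that fell (0.983%). The median log2 fold change over all genes tested was 0.01, a value that TMM scaling holds near 0. APAP_MSC and CTRL libraries did not overlap in any of the 743 called genes (5.84% of those tested), which is also true of 35.5% of all genes tested. APAP_MSC replicate 2 lay nearest to CTRL of the 3 APAP_MSC libraries in 512 of the 743 called genes (68.9%). Without that library 657 genes were called higher (5.24%) and 733 lower (5.85%), and these include 307 of the 321 and 403 of the 422. Leaving out any other single library lowered the counts, to between 119 and 162 higher and between 141 and 202 lower. In all, 116 genes (0.912%) were called in the same direction whichever of the 5 libraries was left out. They are referred to below as calls that held through all omissions. With library sizes alone as the scale, all genes shifted by a median of 0.20 on the log2 scale, and 755 genes were called higher and 236 lower.

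**Figure D1:**
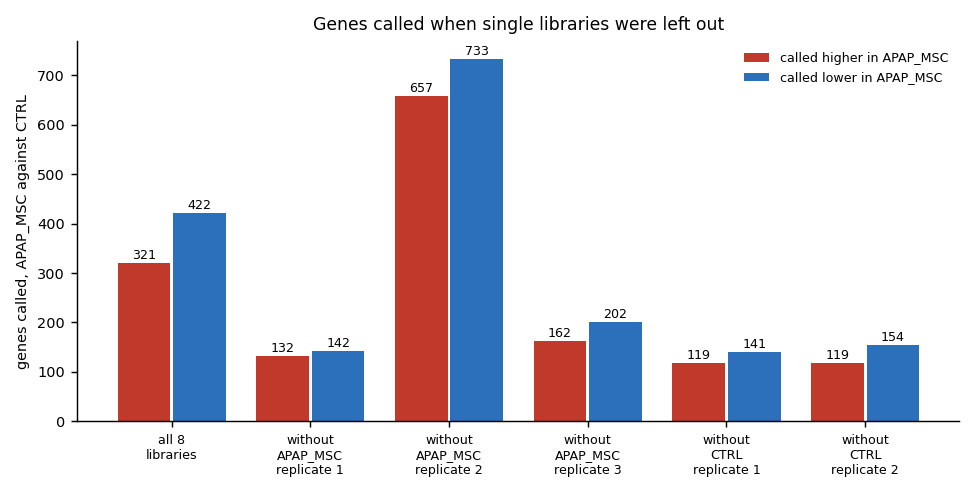
Genes called higher (red) and lower (blue) in APAP_MSC against CTRL, as a number of genes on the vertical axis, with all 8 libraries and with each of the 5 libraries of the comparison left out. The counts rise to 657 and 733 without APAP_MSC replicate 2 and fall below the full fit without any of the other 4 libraries.

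The plot of gene lists shows those with at least 8 tested and 3 called members. The highest shares called higher in APAP_MSC among them were those of acute phase proteins (82.14%), ER stress genes (32.26%) and IL-6 signalling genes (28.57%). The highest shares called lower were those of carboxylesterases (71.43%), complexes III to V (65.79%) and complex I (61.11%) of the respiratory chain, and fatty acid synthesis (50%). Major urinary proteins (35%), cholesterol synthesis (34.38%), hydroxysteroid dehydrogenases (30.77%) and gluconeogenesis and glycogen (30.77%) followed. Of the 743 called genes, 262 belong to 1 or more of the 75 lists and families examined. These are bulk libraries, in which fewer cells of a type and less RNA per cell cannot be told apart.

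**Figure D2:**
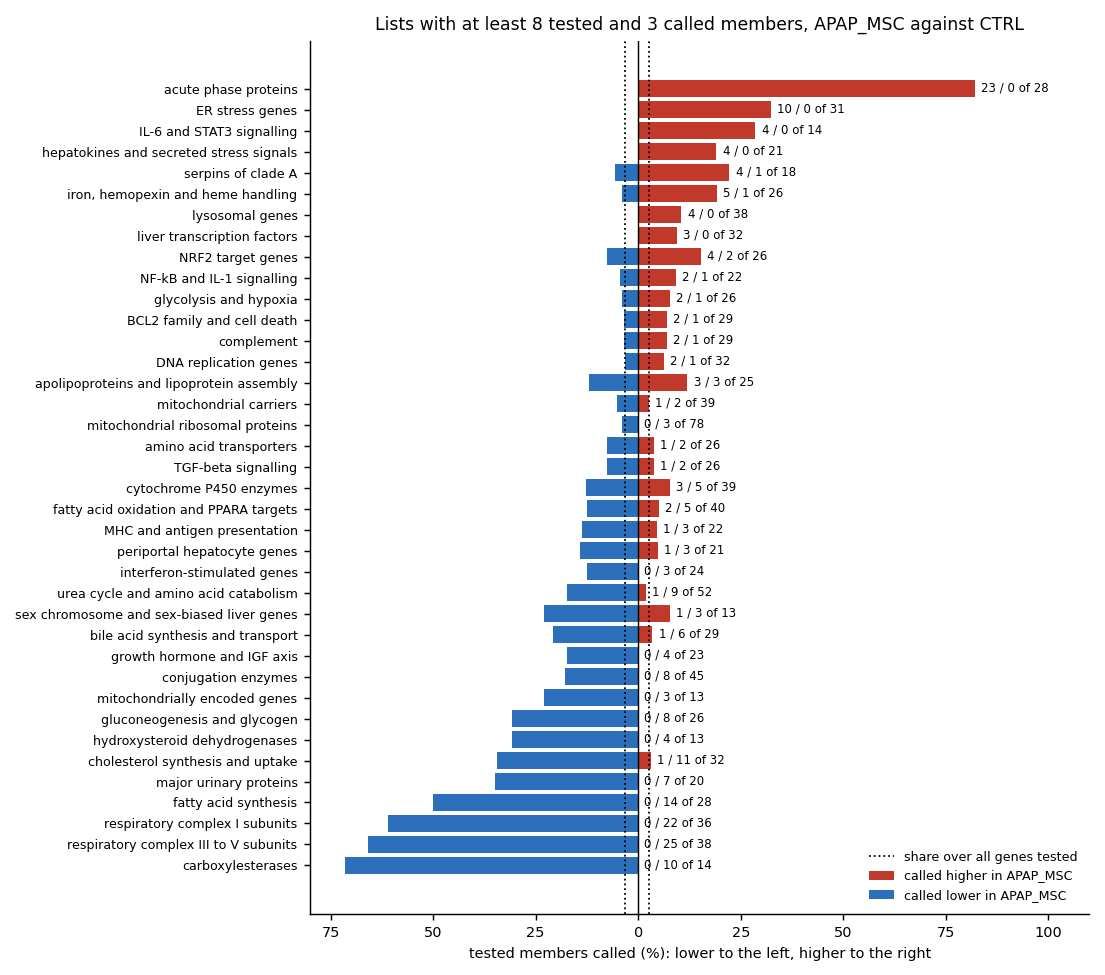
Percentage of tested members called higher (red, to the right) or lower (blue, to the left) in APAP_MSC against CTRL for each list with at least 8 tested and 3 called members. Numbers give members higher / lower of those tested, and the dotted lines mark the shares over all genes, 2.52% higher and 3.32% lower.

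Acute phase proteins had the highest share of called members among the plotted lists. Of 28 tested members, 23 were called higher, and the median log2 fold change of the 28 was 1.64, against 0.01 over all genes. None was called lower by edgeR, 0 at an unadjusted p under 0.05, and 0 by DESeq2. Without APAP_MSC replicate 2 the count was again 23, and over the 5 omissions it lay between 19 and 23. Serum amyloid A proteins, small apolipoproteins that ride on HDL during inflammation, led the group. Saa2 measured 3088, 4062 and 3447 CPM in APAP_MSC, against 8.19 and 8.79 CPM in CTRL (log2 fold change 8.70 ± 0.22, adjusted p = 3e-09 in edgeR). Saa1 measured 2564, 3406 and 2800 CPM in APAP_MSC and 23.6 and 19.6 CPM in CTRL (7.08 ± 0.23, adjusted p = 1.8e-08 in edgeR). In both genes every APAP_MSC library was far above either CTRL library, and replicate 2 was the highest of the 3. The near-identical coding sequences of these neighbours mean that reads may be split between them, so their separate levels are less certain than their shared rise. Saa3, the form made also outside hepatocytes, reached only 6.01, 11.3 and 4.63 CPM in APAP_MSC, against 2.06 and 1.08 CPM in CTRL (2.26 ± 0.44, adjusted p = 0.018 in edgeR). That call was lost in 1 of the 5 omissions.

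The promoter windows of the 2 leading serum amyloid genes are shown because Saa2 and Saa1 led the largest group of increases. They run from 250 bases before to 50 after the RefSeq start of each gene in GRCm38.p6, Saa2 on the plus strand of chr7:46751583-46751882 and Saa1 on the minus strand of chr7:46742931-46743230. Capitals mark the letters TTGCNNAA, the core that C/EBP factors bind, searched on both strands. The C/EBP family carries the response of many acute phase genes.
Saa2: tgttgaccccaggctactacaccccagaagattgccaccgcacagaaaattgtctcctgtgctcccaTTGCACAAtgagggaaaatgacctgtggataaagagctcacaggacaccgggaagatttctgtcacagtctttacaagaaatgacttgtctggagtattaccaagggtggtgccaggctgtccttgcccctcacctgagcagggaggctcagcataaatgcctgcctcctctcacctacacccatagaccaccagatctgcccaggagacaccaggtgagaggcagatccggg
Saa1: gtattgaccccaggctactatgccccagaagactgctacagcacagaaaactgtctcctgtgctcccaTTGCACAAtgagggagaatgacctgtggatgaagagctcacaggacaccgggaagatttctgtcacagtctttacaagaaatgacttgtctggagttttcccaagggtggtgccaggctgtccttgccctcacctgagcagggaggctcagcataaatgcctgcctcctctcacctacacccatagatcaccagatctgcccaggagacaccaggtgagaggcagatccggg
The windows were identical at 287 of 301 aligned positions (95.3%). Each held 1 such core, as did the windows of 11 of the 18 called acute phase genes with a window in the table and 12.2% of the 27025 genes in it. The letters TTCNNNGAA, which STAT factors bind, were in the windows of 5 of those 18 genes and in 9.55% of all genes.

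The other secreted proteins of the group rose less far and from different starting levels. Lcn2 encodes lipocalin 2, which keeps iron from bacteria, and measured 629, 430 and 569 CPM in APAP_MSC against 10.5 and 3.81 CPM in CTRL (6.29 ± 0.45, adjusted p = 0.00033 in edgeR). Orm2 and Orm3 encode orosomucoids, plasma carriers of basic drugs. Orm2 measured 326, 406 and 376 CPM in APAP_MSC and 14.7 and 8.23 CPM in CTRL (5.02 ± 0.25, adjusted p = 4.6e-06 in edgeR). Orm3 was far scarcer, at 6.11 ± 0.95 CPM in APAP_MSC and 0.55 ± 0.28 CPM in CTRL (SD, n = 3 and 2) (log2 fold change 3.38 ± 0.34). Serpina3n, an inhibitor of leukocyte proteases, measured 1899, 1468 and 2020 CPM in APAP_MSC and 200 and 304 CPM in CTRL (2.83 ± 0.24, adjusted p = 0.00018 in edgeR). Among the most abundant members, haptoglobin (Hp), which binds free hemoglobin, had a log2 fold change of 2.14 ± 0.15 and the heme carrier hemopexin (Hpx) one of 1.36 ± 0.15. The fibrinogen chains Fga, Fgb and Fgg had log2 fold changes of 1.20, 1.03 and 0.95. Fgl1, Apcs, Lrg1, Itih4, Itih3, Serpina3m, Lbp, Orm1 and Steap4 were also called higher, with log2 fold changes between 1.42 for Steap4 and 2.83 for Fgl1. Of the 23 calls 19 held through all omissions, and Fgg, Saa3, Crp and Cp lost theirs in at least 1. The members not called were Saa4 (0.74, adjusted p = 0.051), Serpina3g, Cd14, Il1rn and the iron hormone hepcidin, Hamp, which measured 124, 231 and 211 CPM in APAP_MSC and 114 and 238 CPM in CTRL in the edgeR fit (0.10 ± 0.41, adjusted p = 0.93).

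**Figure D3:**
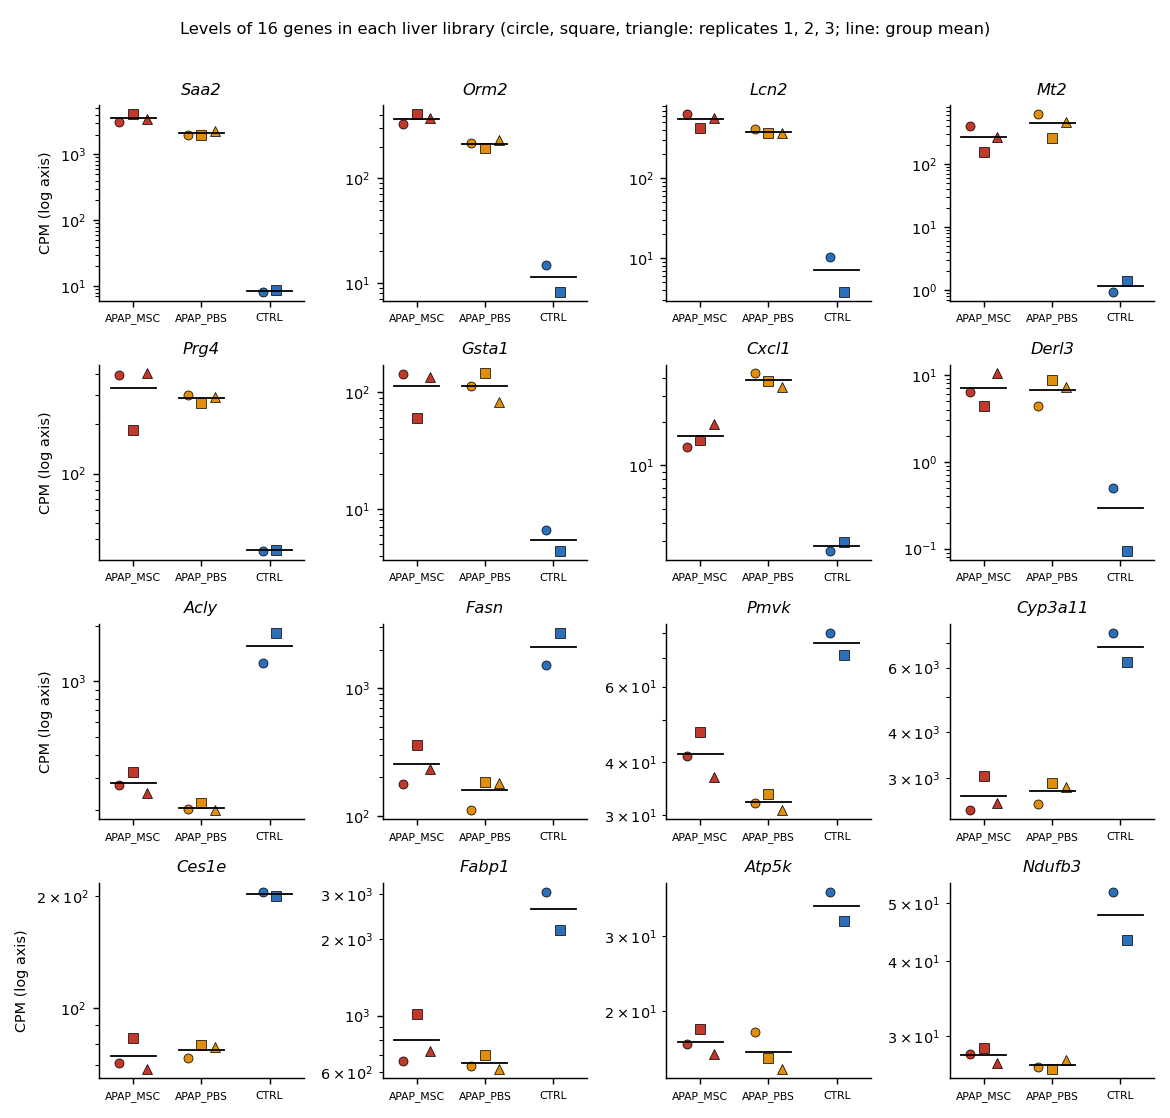
CPM of 16 genes in each library on log axes, with APAP_MSC (red), APAP_PBS (orange) and CTRL (blue) from left to right, replicates 1 to 3 as circle, square and triangle, and group means as lines. In each panel all APAP_MSC libraries lie on 1 side of both CTRL libraries, from Saa2 at 3088 CPM and above against 8.79 CPM and below, to Ndufb3 at 28.7 CPM and below against 43.3 CPM and above.

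Metallothioneins, cysteine-rich proteins that bind zinc and copper and are induced by metals, glucocorticoids and cytokines, showed increases as steep as those of serum amyloid A. Mt2 measured 398, 155 and 270 CPM in APAP_MSC, against 0.926 and 1.36 CPM in CTRL (7.86 ± 0.76, adjusted p = 0.0043 in edgeR). Mt1 measured 414, 174 and 321 CPM in APAP_MSC, against 2.21 and 4.84 CPM in CTRL (6.38 ± 0.67, adjusted p = 0.006 in edgeR). For both, replicate 2 was the lowest APAP_MSC library and still far above either CTRL library. The zinc importer Slc39a14, which brings zinc into hepatocytes during inflammation, was the other called gene of 6 tested members, with a log2 fold change of 0.83 ± 0.15. The calls of Mt1 and Mt2 held through all omissions, and that of Slc39a14 was lost in 1.

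The windows of the 2 metallothionein genes are shown because these genes lie side by side and rose together. Both are on the plus strand of GRCm38.p6, Mt2 at chr8:94172368-94172667 and Mt1 at chr8:94178839-94179138. Capitals mark TGCNCNC on either strand, a loosened form of the core of the metal response element bound by the zinc sensor MTF1. A match to these letters, here or in the shares below, is therefore not always a core of that element.
Mt2: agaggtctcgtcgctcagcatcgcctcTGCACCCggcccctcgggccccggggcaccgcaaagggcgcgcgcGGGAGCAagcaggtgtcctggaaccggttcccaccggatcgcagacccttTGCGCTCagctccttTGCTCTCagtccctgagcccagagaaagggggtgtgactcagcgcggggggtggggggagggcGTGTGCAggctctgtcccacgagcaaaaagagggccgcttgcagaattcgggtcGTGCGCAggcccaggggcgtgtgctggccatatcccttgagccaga
Mt1: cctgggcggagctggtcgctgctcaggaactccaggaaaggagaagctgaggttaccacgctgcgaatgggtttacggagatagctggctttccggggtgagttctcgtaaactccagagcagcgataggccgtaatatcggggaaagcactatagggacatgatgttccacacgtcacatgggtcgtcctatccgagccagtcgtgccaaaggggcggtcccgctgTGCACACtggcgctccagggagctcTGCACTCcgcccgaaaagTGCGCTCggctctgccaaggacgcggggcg
The Mt2 window held 6 matches and the Mt1 window 3. At least 3 were found in 8.04% of the 27025 genes and at least 6 in 0.263%, while 53.6% held 1 or more.

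IL-6 type cytokines act through the receptor chain Il6st and the transcription factor STAT3, and STAT3 in turn raises its own inhibitor Socs3. Of 14 tested genes of this pathway 4 were called higher. Stat3 measured 164, 143 and 163 CPM in APAP_MSC, against 76.5 and 73.8 CPM in CTRL (1.06 ± 0.12, adjusted p = 0.00097 in edgeR). Socs3 measured 14.9, 16.7 and 28.8 CPM in APAP_MSC, against 4.91 and 3.1 CPM in CTRL (2.37 ± 0.36, adjusted p = 0.0096 in edgeR). Osmr, the oncostatin M receptor, had a log2 fold change of 1.57 ± 0.23 and Il6st one of 0.59 ± 0.14. Stat3 and Osmr held through all omissions, Socs3 lost its call in 1 and Il6st in 4. Il6 itself had at most 5 counts in any library and was not tested. Receptors of the IL-1 and TNF pathways moved unequally: Il1r1 (1.17 ± 0.28) and Tnfrsf1a (0.61 ± 0.15) were called higher and the co-receptor Il1rap lower (-0.67 ± 0.14). Each of these calls was lost in at least 3 omissions. All other members of that list of 22 were not called.

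Chemokines were mostly not called, and the 1 of 15 tested that was is the neutrophil attractant Cxcl1. It measured 13.3, 15 and 19.4 CPM in APAP_MSC, 43.1, 38.4 and 34.9 CPM in APAP_PBS, and 2.56 and 2.96 CPM in CTRL. The 3 groups did not overlap, and APAP_MSC lay between the other 2. The log2 fold change over CTRL was 2.52 ± 0.21 (adjusted p = 6.9e-05 in edgeR), and the call held through all omissions. Of 10 tested neutrophil markers 2 were called, Lcn2, which hepatocytes also make, and Prtn3, a protease of neutrophil granules. Prtn3 measured 5.08, 8.28 and 3.85 CPM in APAP_MSC, against 0.0712 and 0.188 CPM in CTRL (5.29 ± 0.52, adjusted p = 0.00033 in edgeR). The defining neutrophil transcripts were near 0 and were not called. S100a8 stood at 0.525, 0.403 and 0.156 CPM in APAP_MSC and 0.356 and 0.047 CPM in CTRL (0.94 ± 0.92). S100a9 stood at 1.93, 1.16 and 0.895 CPM in APAP_MSC and 0.855 and 0.564 CPM in CTRL (0.90 ± 0.90). The 10 tested and 7 untested neutrophil markers together summed to between 443.4 and 648.9 CPM in APAP_MSC and to 29.98 and 6.91 CPM in CTRL. Lcn2 made up most of the APAP_MSC sums.

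The 8 marker lists with no called member, among them those of monocytes, Kupffer cells, T and NK cells, B cells, endothelium and cholangiocytes, held 84 tested genes. Of these, 15 had an unadjusted p under 0.05 in edgeR, and DESeq2 called 3 higher and 2 lower. The macrophage marker Cd68 lay just outside the threshold, at 16.3, 10.2 and 22.4 CPM in APAP_MSC and 6.91 and 6.25 CPM in CTRL (1.32 ± 0.32, adjusted p = 0.05). Gpnmb, a lysosomal glycoprotein of macrophages that take up debris, was the 1 called of 16 repair macrophage markers, at 4.72, 2.06 and 6.23 CPM in APAP_MSC and 0.285 and 0.188 CPM in CTRL (4.21 ± 0.85, adjusted p = 0.028 in edgeR). It lost its call in 4 omissions. The summed monocyte markers ranged from 162.3 to 218.3 CPM in APAP_MSC and stood at 146.1 and 208.3 CPM in CTRL, so these groups overlapped. Markers of mesenchymal stromal cells summed to between 332.5 and 361.1 CPM in APAP_MSC, between 316.7 and 370.7 CPM in APAP_PBS, and to 263.5 and 342.1 CPM in CTRL. None of the 11 tested was called by edgeR, 3 had an unadjusted p under 0.05, and DESeq2 called 1 lower. Alas2, the heme synthesis enzyme of red cell precursors, was lower, at 45.8, 86.7 and 45.6 CPM in APAP_MSC and 136 and 130 CPM in CTRL (-1.17 ± 0.26, adjusted p = 0.036 in edgeR, lost in 4 omissions). It was the 1 called of 7 tested erythroid markers. Most of that list went the other way, with 5 positive and 2 negative log2 fold changes and a median of 1.45. Among 17 tested stellate cell markers, only Cygb, an oxygen-binding globin of these cells, was called higher (1.22 ± 0.26, adjusted p = 0.024 in edgeR, lost in 3 omissions). That list was split, with 8 positive and 9 negative log2 fold changes and a median of -0.04.

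Of 22 tested genes of antigen display 3 were called lower and 1 higher, and of 24 interferon-stimulated genes 3 were called lower. The class I genes H2-Q6 and H2-Q7 and their light chain B2m fell, with log2 fold changes of -1.29 ± 0.21, -1.31 ± 0.25 and -0.56 ± 0.14, while the peptide loading factor Tapbp rose by 0.56 ± 0.12. H2-Q6 and H2-Q7 are close paralogs among which reads may be split. Bst2, which tethers budding viruses to the cell, measured 34.5, 50.2 and 35.5 CPM in APAP_MSC, against 81.3 and 71.1 CPM in CTRL (-0.93 ± 0.15, adjusted p = 0.0073 in edgeR). Ifit3 (-1.13 ± 0.25) and its near-copy Ifit3b were the other called interferon-stimulated genes. Over the omissions the antigen display count of lower genes ranged from 1, without APAP_MSC replicate 3 or either CTRL library, to 5, without APAP_MSC replicate 2. The interferon-stimulated count was 1 without APAP_MSC replicate 1, replicate 3 or CTRL replicate 2. It was 0 by edgeR without CTRL replicate 1, while with all libraries 3 had an unadjusted p under 0.05 and DESeq2 called 3. Of the complement genes, C3, the central protein of the cascade, rose to 12030, 13520 and 15060 CPM in APAP_MSC against 5444 and 6281 CPM in CTRL (1.21 ± 0.16, adjusted p = 0.0027 in edgeR). C3 and H2-Q6 held through all omissions. C8g, part of the pore that complement forms, was called lower and lost its call in 3. In the coagulation list of 28, Kng2 rose by 0.61 ± 0.11 and tissue factor, F3, fell by 1.37 on the log2 scale, and both calls were lost in at least 2 omissions.

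Enzymes that fold proteins in the endoplasmic reticulum and export the misfolded ones were higher in APAP_MSC. Of 31 tested genes 10 were called higher, and the median log2 fold change was 0.55, against 0.01 over all genes. Calr, a calcium-binding chaperone, measured 1211, 996 and 1283 CPM in APAP_MSC, against 691 and 698 CPM in CTRL (0.74 ± 0.14, adjusted p = 0.012 in edgeR). The disulfide isomerase Pdia6 measured 546, 485 and 506 CPM in APAP_MSC, against 360 and 275 CPM in CTRL (0.69 ± 0.15, adjusted p = 0.022 in edgeR). APAP_MSC and CTRL libraries were separate for both genes, but the differences were under 2-fold. Derl3, part of the channel that removes misfolded proteins, changed far more from a low level: 6.36, 4.43 and 10.4 CPM in APAP_MSC against 0.498 and 0.094 CPM in CTRL (4.73 ± 0.68, adjusted p = 0.0067 in edgeR). Pdia3, Pdia4, Dnajc3, Dnajb11, Sdf2l1 and Sel1l, chaperones and export factors, and the pseudokinase Trib3 completed the called set. The best known marker of this response, Hspa5 (BiP), was not called, at 1556, 1012 and 1438 CPM in APAP_MSC and 1115 and 949 CPM in CTRL (0.37 ± 0.20, adjusted p = 0.32 in edgeR). Replicate 2 lay within the CTRL range for Hspa5. The stress factor Ddit3 was also not called (2.08 ± 0.65, adjusted p = 0.13 in edgeR). The list's count depends on single libraries: it was 13 without APAP_MSC replicate 2, 2 without replicate 1, 5 without replicate 3, 4 without CTRL replicate 1 and 0 without CTRL replicate 2. With all libraries, 15 were higher at an unadjusted p under 0.05 in edgeR, and DESeq2 called 11. No single call of this list held through all omissions. Values for APAP_PBS stand beside these, from a comparison that shares the CTRL libraries: 4 of the 31 were called higher there, as were 4.29% of all genes, with a median of 0.32. None of the 10 passed the direct test between APAP_MSC and APAP_PBS.

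Windows of 2 called members of this list are shown, chosen after their values were seen, for a motif with a known part in the response. Derl3 lies on the plus strand at chr10:75893148-75893447 and Calr on the minus strand at chr8:84846882-84847181 of GRCm38.p6. Capitals mark the ER stress response element, a CCAAT box and a CCACG box at a fixed distance with any bases between, searched on both strands, to which NF-Y and ATF6 bind.
Derl3: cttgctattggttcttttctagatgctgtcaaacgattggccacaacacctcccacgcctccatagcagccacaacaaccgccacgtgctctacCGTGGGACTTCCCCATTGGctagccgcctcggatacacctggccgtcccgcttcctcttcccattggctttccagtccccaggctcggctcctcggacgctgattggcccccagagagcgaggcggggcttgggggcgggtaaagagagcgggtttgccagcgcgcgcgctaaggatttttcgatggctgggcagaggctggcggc
Calr: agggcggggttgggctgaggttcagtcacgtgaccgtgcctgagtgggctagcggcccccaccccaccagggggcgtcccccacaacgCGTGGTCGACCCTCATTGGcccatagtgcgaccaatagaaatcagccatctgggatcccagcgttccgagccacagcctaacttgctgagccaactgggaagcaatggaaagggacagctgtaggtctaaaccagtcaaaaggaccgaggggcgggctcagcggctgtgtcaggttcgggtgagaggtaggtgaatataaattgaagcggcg
The motif was in 4 of the 10 called members' windows (Derl3, Calr, Pdia6 and Dnajc3). It was also in 5 of 17 members not called (Hspa5, Hsp90b1, Canx, Creld2 and Syvn1), and in 37 of the 27025 genes (0.137%).

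Genes of antioxidant and iron defence were called in both directions. Gsta1, a glutathione transferase that rises with NRF2, measured 142, 59.7 and 136 CPM in APAP_MSC, against 6.55 and 4.37 CPM in CTRL (4.38 ± 0.54, adjusted p = 0.0092 in edgeR). Replicate 2 was much lower than the other APAP_MSC libraries and still above both CTRL libraries. Abcc4, a basolateral pump for conjugates and bile acids, had a like spread, with 29.5, 8.32 and 29 CPM in APAP_MSC and 2.71 and 3.34 CPM in CTRL (2.86 ± 0.61, adjusted p = 0.048 in edgeR). The ferritin heavy chain Fth1, which stores iron, was more even, at 2303, 1781 and 2471 CPM in APAP_MSC and 1034 and 1081 CPM in CTRL (1.05 ± 0.15, adjusted p = 0.004 in edgeR). Blvrb, biliverdin reductase B, rose by 0.93 ± 0.16 on the log2 scale. G6pdx and Me1, which make NADPH, are counted among NRF2 targets too and were lower (-0.86 ± 0.14 and -3.06 ± 0.41). Nqo1 was at 20.5, 7.34 and 17.8 CPM in APAP_MSC and 4.42 and 5.22 CPM in CTRL, and was not called (1.64 ± 0.41, adjusted p = 0.055 in edgeR). In total 4 of 26 tested NRF2 targets were higher and 2 lower, and without replicate 2 these counts were 12 and 2. Fth1 held through all omissions, Blvrb lost its call in 1, Gsta1 in 2 and Abcc4 in 4. The hepcidin relative Hamp2 was lower, at 11.3, 22.7 and 8.53 CPM in APAP_MSC and 47.1 and 47.2 CPM in CTRL (-1.73 ± 0.37, adjusted p = 0.038 in edgeR, lost in 4 omissions).

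Cytochrome P450 enzymes, which oxidise drugs, were called in both directions, 3 higher and 5 lower of 39 tested. The higher count was 1 without APAP_MSC replicate 1 or CTRL replicate 1 and 6 without APAP_MSC replicate 2, and the lower count was 3 without APAP_MSC replicate 1 or either CTRL library. Cyp3a11, the main drug-metabolising member of its subfamily in mouse liver, measured 2454, 3048 and 2561 CPM in APAP_MSC, against 7475 and 6218 CPM in CTRL (-1.35 ± 0.15, adjusted p = 0.00053 in edgeR). Its relative Cyp3a13 went the other way, with 429, 315 and 444 CPM in APAP_MSC and 145 and 143 CPM in CTRL (1.46 ± 0.16, adjusted p = 0.00062 in edgeR). Cyp2f2, an enzyme of periportal hepatocytes, was lower, at 430, 634 and 587 CPM in APAP_MSC and 1158 and 1305 CPM in CTRL (-1.16 ± 0.16, adjusted p = 0.0032 in edgeR). All 3 held through all omissions. Cyp2u1, Cyp2c55 and Cyp2d9 were also lower and Cyp2d26 and Cyp2c39 higher. Cyp2e1, the enzyme best known for activating acetaminophen, was not called, at 3132, 4724 and 3304 CPM in APAP_MSC and 3279 and 3356 CPM in CTRL (0.17 ± 0.27, adjusted p = 0.79 in edgeR). The nuclear receptors that control many of these enzymes were higher: Nr1i3 (CAR) by 1.17 ± 0.21, Nr1i2 (PXR) by 0.58 ± 0.10 and their partner Rxra by 0.45 ± 0.11. These were the 3 called of 32 liver transcription factors, and only Nr1i3 held through all omissions. The count was 1 without either CTRL library.

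Conjugating enzymes, which attach glutathione, sulfate, glucuronate or methyl groups, were called lower in 8 of 45 cases, with a median log2 fold change of -0.53. Gstp1, an abundant glutathione transferase, measured 778, 949 and 1094 CPM in APAP_MSC, against 1961 and 1782 CPM in CTRL (-0.99 ± 0.15, adjusted p = 0.0048 in edgeR). Gstt1, Gsta3, Gsta4, Gstk1, Ugt3a2 and Sult5a1 were lower too, with log2 fold changes between -0.64 for Gsta3 and -1.85 for Sult5a1. Gstp1 and Gstt1 held through all omissions. Without APAP_MSC replicate 2 the list had 23 called lower and 2 higher, and without replicate 1 or without CTRL replicate 1 it had 3 lower. Sult2a7, a sulfotransferase, belongs to no list and was higher, at 4.78, 5.91 and 5.72 CPM in APAP_MSC and 0.926 and 0.611 CPM in CTRL (2.86 ± 0.33, adjusted p = 0.00097 in edgeR).

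Carboxylesterases, which split ester drugs and lipids, had the highest share of members called lower of the lists examined, 10 of 14 tested, with a median log2 fold change of -0.76. Ces1e measured 71.1, 83.2 and 68.4 CPM in APAP_MSC, against 206 and 201 CPM in CTRL (-1.46 ± 0.11, adjusted p = 5.3e-05 in edgeR). Ces3b measured 149, 241 and 178 CPM in APAP_MSC, against 544 and 472 CPM in CTRL (-1.42 ± 0.18, adjusted p = 0.0017 in edgeR). Ces2c, Ces3a, Ces2a and Ces1d fell as well, from -0.63 to -1.09 on the log2 scale. Over all 10 called members the log2 fold changes ran from -0.605 for Ces1f to -5.52 for Ces2b. The count was between 4, without CTRL replicate 2, and 10 over the omissions, and Ces1e, Ces3b and Ces2c held in all. Major urinary proteins, male-biased pheromone carriers that hepatocytes secrete, had 7 of 20 tested members called lower with a median of -1.66. Mup20 measured 3378, 6813 and 5347 CPM in APAP_MSC, against 11670 and 9312 CPM in CTRL (-1.02 ± 0.24, adjusted p = 0.039 in edgeR). These genes are near-identical copies among which reads cannot be placed with certainty. None of their calls remained by edgeR without APAP_MSC replicate 1, without replicate 3 or without CTRL replicate 1, and 17 of the 20 had an unadjusted p under 0.05 and 16 were called by DESeq2 with all libraries. Cyp4a12a, another male-biased gene that depends on growth hormone, was lower by 1.32 ± 0.22. Of 23 genes of the growth hormone and IGF axis 4 were lower, with a median of -0.95, and these were Cyp4a12a, its near-copy Cyp4a12b, Cyp2d9 and Mup20. That count was 1 without APAP_MSC replicate 1 or CTRL replicate 2, 2 without APAP_MSC replicate 3 or CTRL replicate 1, and 9 without APAP_MSC replicate 2. The growth hormone receptor Ghr (-0.29 ± 0.17) and Igf1, the growth factor it induces (-0.32 ± 0.17), were not called. Of 13 hydroxysteroid dehydrogenases 4 were called lower, Hsd11b1, which regenerates corticosterone, among them (-0.65 ± 0.15). The count was 1 without APAP_MSC replicate 3 or CTRL replicate 2 and 7 without APAP_MSC replicate 2. It was 0 by edgeR without APAP_MSC replicate 1, without CTRL replicate 1, and with library sizes alone as the scale, against 8 at an unadjusted p under 0.05 and 6 by DESeq2 on the usual scale.

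Genes of fatty acid synthesis had the lowest median of the enzyme lists examined. Of 28 tested, 14 were called lower, with a median log2 fold change of -1.39, against 0.01 over all genes. Acly makes cytosolic acetyl-CoA from citrate, and measured 273, 323 and 247 CPM in APAP_MSC against 1259 and 1833 CPM in CTRL (-2.46 ± 0.17, adjusted p = 2.4e-05 in edgeR). Acaca and Acacb, which carboxylate acetyl-CoA, were both called lower, Acacb with a log2 fold change of -1.45 ± 0.22. Fasn, the synthase that joins the units to palmitate, measured 178, 356 and 235 CPM in APAP_MSC, against 1505 and 2717 CPM in CTRL (-3.04 ± 0.38, adjusted p = 0.0068 in edgeR). Replicate 2 was the highest of the APAP_MSC libraries in both genes and remained well below CTRL.

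Steps around the synthase were lower too. Me1, which supplies NADPH, measured 109, 243 and 95.2 CPM in APAP_MSC, against 983 and 1510 CPM in CTRL (-3.06 ± 0.41, adjusted p = 0.01 in edgeR). Elongases Elovl6 and Elovl5 had log2 fold changes of -3.56 ± 0.64 and -1.52 ± 0.26. Gpam, the first enzyme of triglyceride assembly, measured 239, 285 and 258 CPM in APAP_MSC and 878 and 943 CPM in CTRL (-1.80 ± 0.15, adjusted p = 6.8e-05 in edgeR). Thrsp, a lipogenic regulator, measured 111, 295 and 82.3 CPM in APAP_MSC, against 1588 and 1751 CPM in CTRL (-3.36 ± 0.55, adjusted p = 0.025 in edgeR). The sugar-sensing factor Mlxipl (ChREBP) fell by 1.00 on the log2 scale and its target Pklr, liver pyruvate kinase, by 2.54. Of the called members of the list, Pnpla3 had the largest fall, with a log2 fold change of -3.95. Scd1, the desaturase, was lower in each APAP_MSC library, at 2169, 7667 and 1424 CPM against 18920 and 26360 CPM in CTRL, but was not called (-2.59 ± 0.71, adjusted p = 0.099 in edgeR). Without replicate 2 its adjusted p was 1.9e-05. Srebf1, the factor that drives the pathway, was not called (-0.60 ± 0.25, adjusted p = 0.21). Acly, Gpam, Pklr and Fasn held through all omissions, and the list's count ranged from 6, without CTRL replicate 2, to 16, without APAP_MSC replicate 2. Plin4, a coat protein of lipid droplets, was higher, with 8.52, 4.25 and 11.7 CPM in APAP_MSC and 1.5 and 0.846 CPM in CTRL (2.85 ± 0.45, adjusted p = 0.0092 in edgeR, lost in 1 omission).

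Of 32 tested genes of cholesterol synthesis and uptake 11 were called lower and 1 higher, with a median log2 fold change of -0.38. Sc5d, a desaturase of the sterol ring late in the pathway, measured 351, 451 and 327 CPM in APAP_MSC, against 889 and 764 CPM in CTRL (-1.13 ± 0.16, adjusted p = 0.0029 in edgeR). Pmvk, a kinase of the mevalonate steps, measured 41.2, 46.9 and 37 CPM in APAP_MSC, against 80.3 and 71.1 CPM in CTRL (-0.86 ± 0.12, adjusted p = 0.0032 in edgeR). For both, no APAP_MSC library reached the lower of the CTRL libraries. The other early enzymes Acat2, Mvd and Fdps had log2 fold changes of -0.52, -0.98 and -0.78. The other later enzymes Lss, Hsd17b7 and Dhcr7 had -0.51, -0.54 and -0.48. The sterol sensors Scap (-0.78 ± 0.14) and Insig1 (-0.79 ± 0.17) were also lower. Sqle was not called (-0.28 ± 0.13, adjusted p = 0.23 in edgeR). Sc5d and Pmvk held through all omissions, and the count of lower members ranged from 5, without either CTRL library, to 13. In APAP_PBS, against the same CTRL libraries, 22 members were called lower and 1 higher, with a median of -0.84. The letters TCACNCCAC, a form of the sterol regulatory element, were in none of the 9 called lower members' windows, in 1 of 15 members not called and in 1.44% of all genes.

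**Figure D4:**
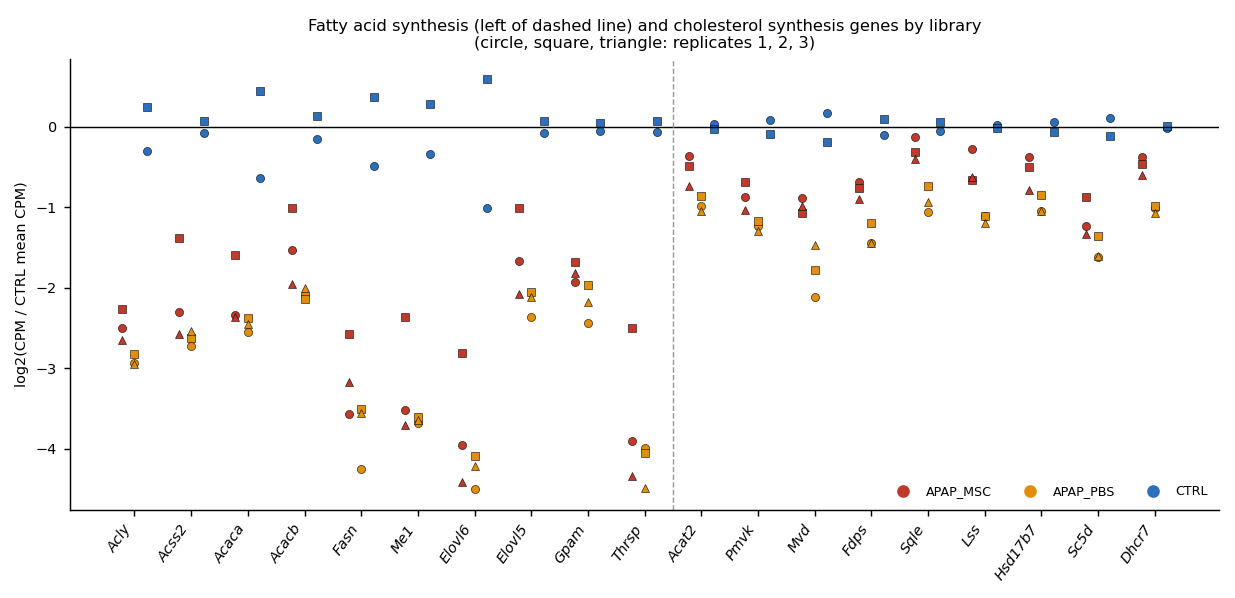
Level of each gene in each library as log2 of its CPM over the CTRL mean, for 10 fatty acid synthesis genes and, right of the dashed line, 9 cholesterol synthesis genes in pathway order, with APAP_MSC in red, APAP_PBS in orange and CTRL in blue. APAP_MSC libraries lie below CTRL for all genes shown, and replicate 2 (square) lies nearest to CTRL for the 10 fatty acid genes. For the cholesterol genes from Acat2 to Dhcr7 each APAP_MSC library lies above each APAP_PBS library and below both CTRL libraries; APAP_MSC and APAP_PBS do not overlap in 13.8% of all genes.

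Bile acid synthesis and transport had 6 members lower and 1 higher of 29 tested. Cyp8b1, the 12-alpha hydroxylase that sets the ratio of cholic acid, measured 69.5, 82.4 and 26.3 CPM in APAP_MSC, against 269 and 473 CPM in CTRL (-2.65 ± 0.51, adjusted p = 0.04 in edgeR). Cyp7b1, of the alternative pathway, fell by 2.01 on the log2 scale. Slc10a1 (NTCP), which takes bile acids up from blood, measured 320, 444 and 337 CPM in APAP_MSC, against 628 and 890 CPM in CTRL (-1.05 ± 0.18, adjusted p = 0.0091 in edgeR). Baat, Abcb4 and Slc22a7 were lower by 0.57 to 0.76. Cyp7a1, the rate-limiting enzyme, was low in every APAP_MSC library, at 10.4, 11.3 and 2.61 CPM, but CTRL itself was spread between 43.7 and 167 CPM, and the gene was not called (-3.73 ± 0.81, adjusted p = 0.061 in edgeR). No call of this list held through all omissions. The count of lower members was 10 without APAP_MSC replicate 2 and 1 without CTRL replicate 2.

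Fatty acid oxidation was called both ways: 5 of 40 tested members were lower and 2 higher, and the median was -0.03. The lower ones are targets of PPARA, the fatty acid sensor. Acaa1b, a peroxisomal thiolase, measured 168, 181 and 207 CPM in APAP_MSC, against 600 and 744 CPM in CTRL (-1.86 ± 0.16, adjusted p = 9.5e-05 in edgeR). Fabp1, the liver fatty acid carrier, measured 662, 1010 and 724 CPM in APAP_MSC, against 3077 and 2179 CPM in CTRL (-1.72 ± 0.20, adjusted p = 0.00096 in edgeR). Ehhadh, also peroxisomal, and Pdk4, which blocks pyruvate oxidation, were lower by 1.33 and 1.39 in log2 units. Acot1 (-0.73 ± 0.17) was the other. Angptl4 (1.06 ± 0.20), another PPARA target, and Eci2 (0.58 ± 0.12) rose. Ppara and Cpt1a, the gate of mitochondrial oxidation, were not called (0.12 and 0.20). Acaa1b, Ehhadh, Fabp1 and Pdk4 held through all omissions.

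Among genes of carbohydrate metabolism, transcripts for glycogen and fructose handling were called lower. Of 26 tested genes of gluconeogenesis and glycogen 8 were called lower, with a median of -0.67. Gys2, liver glycogen synthase, measured 60.2, 85.7 and 68.1 CPM in APAP_MSC, against 112 and 156 CPM in CTRL (-0.91 ± 0.16, adjusted p = 0.011 in edgeR). Glycogen phosphorylase (Pygl), the branching enzyme (Gbe1), the glucose transporter Slc2a2 and the glucose-6-phosphate transporter Slc37a4 had log2 fold changes of -1.26, -0.64, -0.99 and -0.76. The fructose enzymes Khk and Tkfc had -0.95 and -1.39, and Tkfc alone held through all omissions. The list's count ranged from 1, without CTRL replicate 2, to 12, without APAP_MSC replicate 2. In the glycolysis list Ldha, lactate dehydrogenase, was higher at 820, 654 and 919 CPM in APAP_MSC and 453 and 381 CPM in CTRL (0.94 ± 0.16, adjusted p = 0.0074 in edgeR). Slc2a1 (GLUT1) rose by 0.96 ± 0.21 and Eno1 fell by 0.85. Of 26 tested genes in that list, 2 were thus called higher (7.69%) and 1 lower (3.85%). None of these calls held through all omissions.

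Of 52 tested genes of the urea cycle and amino acid breakdown 9 were lower and 1 higher. Prodh, the first enzyme of proline breakdown, measured 88.7, 91 and 80.2 CPM in APAP_MSC, against 178 and 196 CPM in CTRL (-1.11 ± 0.11, adjusted p = 0.00034 in edgeR). The urea cycle enzymes Ass1, Asl and Otc were lower, at -0.74 ± 0.14, -0.80 ± 0.16 and -0.90 ± 0.23. Gnmt, which handles excess methionine, had -0.98 ± 0.19, and Hgd, Haao and Qdpr were lower by 0.68 to 0.76. Glud1, which releases ammonia from glutamate, was higher (0.63 ± 0.12). Of these calls only Prodh held through all omissions, and the count of lower members ranged from 1, without APAP_MSC replicate 1 or CTRL replicate 2, to 16 without APAP_MSC replicate 2. Glul, the glutamine synthetase of the last cells before the central vein, was not called: it measured 125, 426 and 79.1 CPM in APAP_MSC and 655 and 732 CPM in CTRL (-1.72 ± 0.78, adjusted p = 0.28 in edgeR). Its adjusted p was 0.023 without replicate 2. Rhbg, an ammonium transporter of the same cells, was the 1 called of 23 pericentral genes (-1.31 ± 0.34, adjusted p = 0.046 in edgeR), and 7 were called lower and 2 higher without replicate 2. Among 21 periportal genes Cyp2f2, Ass1 and Asl were lower and Ctsc was higher.

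Nuclear genes for the respiratory chain, which makes ATP in mitochondria, were lower in most of the subunits tested. Complex I, which takes electrons from NADH, had 22 of 36 tested subunits called lower, with a median of -0.50. Complexes III to V had 25 of 38, with a median of -0.54. Atp5k, a subunit of ATP synthase, measured 16.8, 18.2 and 15.8 CPM in APAP_MSC, against 38.1 and 32.4 CPM in CTRL (-1.06 ± 0.13, adjusted p = 0.0017 in edgeR). Ndufb3 of complex I measured 28, 28.7 and 27.1 CPM in APAP_MSC, against 52.3 and 43.3 CPM in CTRL (-0.77 ± 0.11, adjusted p = 0.0038 in edgeR). In these 2 genes every APAP_MSC library lay below both CTRL libraries. Over the lists replicate 2 lay nearest to CTRL: its median log2 difference from the CTRL mean was -0.37 for complexes III to V, against -0.60 in replicate 1 and -0.65 in replicate 3. For complex I it was -0.41, against -0.54 in replicate 1 and -0.52 in replicate 3. Uqcr11 and Uqcr10 of complex III, cytochrome c1 (Cyc1) and Cox5a of complex IV had log2 fold changes of -0.83, -0.67, -0.63 and -0.70. Called subunits ranged from Ndufv1 (-0.40) to Ndufa13 (-0.83) in complex I. Most single differences were thus smaller than 2-fold, and the counts were sensitive: with library sizes alone as the scale they were 9 and 11. Without APAP_MSC replicate 2 they were 25 and 30, and without any other single library between 2 and 11 for complex I and between 6 and 12 for complexes III to V. The lowest were without CTRL replicate 1. At an unadjusted p under 0.05, 35 of 36 and 35 of 38 were lower. In APAP_PBS, with the same CTRL libraries, 30 and 31 were called lower.

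Some enzymes that feed the chain are named here after their values were seen. No list of these pathways was counted, so the genes named do not stand for the rest. Pdhb, a subunit of pyruvate dehydrogenase, measured 78.9, 94.8 and 78.6 CPM in APAP_MSC, against 233 and 248 CPM in CTRL (-1.51 ± 0.13, adjusted p = 7.2e-05 in edgeR). Dlat of the same complex had a log2 fold change of -0.80 ± 0.14. Citrate synthase (Cs), Idh3b and Sdhb of the citric acid cycle had -0.88, -0.61 and -0.73. Genes carried by mitochondrial DNA were lower in 3 of 13 cases, mt-Nd6, mt-Atp8 and mt-Nd4l, with a median of -0.45 over the 13. These 3 calls were lost without APAP_MSC replicate 1, without replicate 3 and without CTRL replicate 1. The libraries were made by selection on poly(A) tails, whose part in these values was not tested. Mitochondrial ribosomal proteins had 3 of 78 called lower (Mrps35, Mrps5 and Mrps2), near the 3.32% of all genes. Cytosolic ribosomal proteins (80 tested, median 0.06) and proteasome subunits (47 tested, median 0.04) had none called by edgeR. At an unadjusted p under 0.05 they had 12 and 4, and DESeq2 called 3 and 0.

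**Figure D5:**
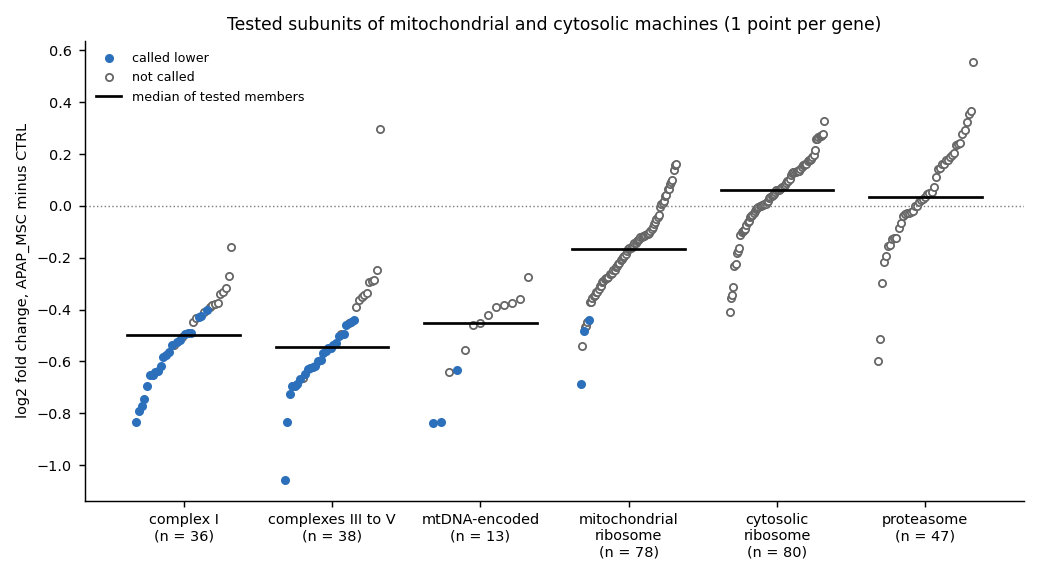
Log2 fold change of APAP_MSC over CTRL for each tested subunit of 6 groups, ranked within the group, with called genes filled blue, others open and the median as a bar. The medians are -0.50 and -0.54 for the respiratory complexes and -0.45 for genes of mitochondrial DNA, against -0.17 for the mitochondrial ribosome, 0.06 for the cytosolic ribosome and 0.04 for the proteasome.

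Lipoprotein genes were called both ways, 3 each of 25. The receptors Lrp1 and Scarb1 and the plasma enzyme Lcat had log2 fold changes of 0.61, 0.60 and 0.60. Apoa2, the HDL protein, Mttp, which loads lipid on apolipoprotein B, and the lipase Lipc had -0.64, -0.59 and -0.72. All 6 calls were lost in at least 3 omissions. Of 21 tested hepatokines and secreted proteins 4 were called higher (19.05%), but 2 without APAP_MSC replicate 1 and 1 without APAP_MSC replicate 3. The list median was 0.04, with 12 positive and 9 negative log2 fold changes. Ang, a ribonuclease, had the largest log2 fold change of the 4, at 208, 241 and 274 CPM in APAP_MSC and 112 and 67.8 CPM in CTRL (1.42 ± 0.20, adjusted p = 0.0041 in edgeR). Agt, the precursor of angiotensin (0.54 ± 0.14), and Gpx3, the plasma glutathione peroxidase (1.40 ± 0.30), were higher too. The amino acid transporter subunit Slc3a1 rose by 1.31 ± 0.18, and Slc38a3, which carries glutamine, fell by 0.77. Of the lysosomal list 4 of 38 were higher, but 2 without APAP_MSC replicate 1 and 1 without either CTRL library. The protease Ctsc had the smallest adjusted p of the 4, at 181, 184 and 228 CPM in APAP_MSC and 85.9 and 85.9 CPM in CTRL (1.20 ± 0.15, adjusted p = 0.0017 in edgeR). Ang, Slc3a1 and Ctsc held through all omissions.

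Growth, death and scar genes gave few calls. The survival gene Bcl2l1 (BCL-XL) measured 37, 34.5 and 38.1 CPM in APAP_MSC, against 18.9 and 20.6 CPM in CTRL (0.88 ± 0.12, adjusted p = 0.0029 in edgeR), and the call held through all omissions. Bid, which promotes death, was also higher (0.72 ± 0.15). Of 32 DNA replication genes Ung (2.22 ± 0.38) and Mcm6 (0.96 ± 0.20) were higher and Rrm2, which makes deoxynucleotides, was lower, at 2.57, 3.94 and 1.36 CPM in APAP_MSC and 8.69 and 11.7 CPM in CTRL (-1.97 ± 0.35, adjusted p = 0.011 in edgeR). The cell cycle inhibitor Cdkn1a differed widely between APAP_MSC libraries, at 32, 3.71 and 11.9 CPM, with 3.27 and 2.4 CPM in CTRL (2.48 ± 0.97, adjusted p = 0.22 in edgeR). Fibronectin (Fn1) rose by 0.73 ± 0.18 and Col15a1 fell by 1.03, the 2 called of 37 matrix genes. Of 26 tested TGF-beta genes, Inhbc (0.84 ± 0.21) was called higher, and Inhba (-0.82 ± 0.15) and the receptor Tgfbr2 (-0.86 ± 0.21) lower. These shares were 3.85% and 7.69%, against 2.52% and 3.32% of all genes, and the list median was 0.01. No call of that list held through all omissions. The chaperone Hspb8 (0.79 ± 0.12) and the glucocorticoid-induced Fkbp5 (1.97 ± 0.37) were called among 23 heat shock genes, and Btg1 (0.64 ± 0.12) among 29 immediate early genes. In all, 12 lists and families had no called member, among them p53 targets, mitosis, G1 regulators, ribosome biogenesis, the circadian clock, aldehyde dehydrogenases and tubulins. They held 298 tested genes, of which 52 had an unadjusted p under 0.05 in edgeR and DESeq2 called 7 higher and 7 lower.

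Several of the largest differences belong to no list. Prg4, which encodes lubricin, a lubricating and secreted glycoprotein, measured 395, 184 and 402 CPM in APAP_MSC, against 34 and 34.6 CPM in CTRL (3.25 ± 0.34, adjusted p = 0.002 in edgeR). Hcn3, a pacemaker ion channel, had the largest fall of the genes in this paragraph, to 1.75, 5.5 and 1.79 CPM in APAP_MSC, against 24.9 and 58.9 CPM in CTRL (-3.79 ± 0.56, adjusted p = 0.016 in edgeR). The N-acetyltransferase-like gene Nat8f5 measured 3.21, 2.42 and 1.32 CPM in APAP_MSC, against 21.8 and 17.1 CPM in CTRL (-3.09 ± 0.32, adjusted p = 0.00079 in edgeR). The CTRL libraries were close to each other for Nat8f5 and far apart for Hcn3. Inmt, a methyltransferase of tryptamine, the nicotinic receptor subunit Chrna4, the G protein subunit Gna14, the transporter Slc15a5 and Fam198a were lower by between 2.16 and 2.46 in log2 units. Prg4, Nat8f5 and Fam198a held through all omissions. Gna14 and Slc15a5 lost their calls in 1, Hcn3 and Chrna4 in 2 and Inmt in 3.

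Against APAP_PBS, the livers of APAP_MSC mice differed in 1 gene by edgeR, Cxcl1, which is 0.00786% of those tested (log2 fold change of APAP_MSC over APAP_PBS -1.28 ± 0.15, adjusted p = 0.034). No named gene passed this test when APAP_MSC replicate 1 or 2 or either CTRL library was left out. None was called higher, 842 genes had an unadjusted p under 0.05, and DESeq2 called 17 higher and 24 lower. Of the 743 genes called against CTRL, 97 had an unadjusted p under 0.05 here. The called genes with the next smallest p-values are given as values, since none passed. Saa2 was at 3532 ± 492 CPM in APAP_MSC, 2082 ± 179 CPM in APAP_PBS and 8.49 ± 0.425 CPM in CTRL, and APAP_MSC over APAP_PBS was 0.76 ± 0.13 (SD, n = 3, 3 and 2; adjusted p = 0.27 in edgeR). Orm1 was likewise farther from CTRL in APAP_MSC (0.64 ± 0.13 over APAP_PBS, adjusted p = 0.37). For the cholesterol genes Dhcr7, Lss, Fdps and Mvd, APAP_MSC was above APAP_PBS by 0.54, 0.62, 0.57 and 0.78 in log2 units, with adjusted p of 0.27, 0.3, 0.36 and 0.39. Dhcr7, for example, measured 82.8, 78 and 71.4 CPM in APAP_MSC, 53.6, 54.6 and 51.2 CPM in APAP_PBS, and 107 and 109 CPM in CTRL. Ces2c and Pnpla7 also lay between APAP_PBS and CTRL, and Nat8 lay farther from CTRL in APAP_MSC, at 3.67, 3.89 and 2.92 CPM, against 7.86, 7.08 and 5.32 CPM in APAP_PBS and 13.5 and 9.68 CPM in CTRL. Side by side, with the same CTRL libraries, APAP_PBS had 546 genes higher (4.29%) and 760 lower (5.97%) than CTRL, 10.3% in all. APAP_MSC had 321 and 422, 5.84% in all. The APAP_MSC counts were sensitive to 1 library: without APAP_MSC replicate 2 they were 657 and 733, 11.1% in all. The APAP_PBS counts given here come from the fit with all 8 libraries, so they are not directly comparable with these. Why the counts of the 2 groups differ was not tested.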

How the data were processed

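Liver messenger RNA of 8 libraries was analysed, 3 APAP_MSC, 3 APAP_PBS and 2 CTRL. The deposited table holds the authors' estimated counts per gene, of which 6.39% to 7.46% of the values per library are not whole numbers, and FPKM values the authors computed. Per the submitters' processing notes fastp 0.18.0 was used on the reads. Which aligner, counting tool, genome build and strand setting followed is not given in the sources used here. Of 22183 gene IDs, 22128 were matched to symbols. Counts were rounded to whole numbers. filterByExpr kept 12722 genes, and libraries of 16261191 to 24516470 counts were scaled by TMM. A quasi-likelihood model (edgeR 4.0.16, R 4.3.3) with 1 coefficient per group was fitted over all 8 libraries, so that CTRL shares the spread of the other groups. P-values were adjusted by Benjamini-Hochberg over all genes tested, and calls were made at an adjusted p under 0.05. The standard error is the log2 fold change divided by the square root of its F statistic. A count of 0 allows up to 3 counts, or 0.122 to 0.184 CPM, which covers counting error only.

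Named genes are the 15 largest called increases and decreases with non-overlapping libraries and a mean of at least 5 CPM, in each list at most 4 called members, taken by adjusted p, the 10 called genes with the smallest adjusted p against APAP_PBS, and Cxcl1. Further list members are named to account for a list, and genes named outside these rules were chosen after their values were seen. The members and lists were chosen with earlier results of these data known, so lists are described by counts and medians only. Alternatives were DESeq2 1.42.0, limma 3.58.1 on log2 of the deposited FPKM with pseudocounts of 1 and 0.1, other scalings and filters, the 5 libraries alone, a replicate block, and leaving out each of the 5 libraries. The fitting step was tested on simulated data. Promoter windows come from RefSeq, GRCm38.p6. Some members of the lists are counted but not reported by name here.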

Additional observations from a re-analysis of the deposited data

How the results depend on the processing

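All 177 genes chosen by the naming rule kept their direction under the alternatives run, but many lost their call: 93 without CTRL replicate 2, 86 without CTRL replicate 1, 73 without APAP_MSC replicate 1, 67 without replicate 3 and 6 without replicate 2. With the 5 APAP_MSC and CTRL libraries alone 73 lost it, with the replicate block 66, in either limma fit 40, with library sizes alone as the scale 28, with no filter 14, with DESeq2 size factors 4, and under DESeq2's Wald test or the stricter filter 0. With library sizes alone as the scale, 755 genes were called higher and 236 lower, 229 of them higher by at least 2-fold, and 76.2% of calls were higher, against 43.2% under TMM. DESeq2's Wald test called 519 higher, 698 lower and 214 at least 2-fold higher, and 13 named genes against APAP_PBS. On log2(FPKM + 1) limma called 498 higher, 207 lower and 69 at least 2-fold lower, with 70.6% of calls higher and 0 named genes against APAP_PBS. On log2(FPKM + 0.1) it called 599 higher, 206 lower and 209 at least 2-fold higher, with 74.4% of calls higher and 0 against APAP_PBS. With the 5 APAP_MSC and CTRL libraries alone, 124 were higher and 170 lower, and the test against APAP_PBS could not be run. DESeq2 size factors and the other low-count filters left each of these counts within 1.5 times its value. The T and NK cell marker list had no median under the stricter filter or without APAP_MSC replicate 2. The cause of these differences was not tested.

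Over the omissions of 1 library, the counts ranged from 119 to 657 higher, 141 to 733 lower, 82 to 255 at least 2-fold higher and 71 to 232 at least 2-fold lower, and from 0 to 1 named genes against APAP_PBS. Leaving out a CTRL library leaves 1, which is then assumed to vary like the other groups. The replicate numbers are shared across groups, but nothing states that they pair samples. Deviations of same-numbered APAP_MSC and CTRL libraries correlated at 0.186 and 0.133, and those of APAP_MSC and APAP_PBS at -0.00167, -0.0157 and -0.0633. With 2 CTRL libraries, deviations from their mean mirror each other. APAP_MSC replicates 1 and 2 thus had -0.186 and -0.133 with the CTRL library of the other number. The values with CTRL therefore cannot decide whether samples were paired. With the replicate number as a block 135 genes were higher and 186 lower, 83 and 79 of them by at least 2-fold, and 0 named genes differed from APAP_PBS. Having 2 CTRL libraries limits all of these counts.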

Other observations

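Of the Y-linked genes, Ddx3y measured 54, 54.8 and 27.1 CPM in APAP_MSC, 55.1, 59.6 and 55.2 CPM in APAP_PBS, and 48.1 and 43.4 CPM in CTRL. Eif2s3y measured 34, 35.2 and 16.2 CPM in APAP_MSC, 31.4, 31.6 and 35.3 CPM in APAP_PBS, and 48.6 and 38.6 CPM in CTRL. In both genes APAP_MSC replicate 3 was the lowest of the 8 libraries, at about the same fraction of the other APAP_MSC libraries. Uty stood at 8.45 CPM in that library, against 14.1 and 16.3 CPM in the other APAP_MSC libraries, and Kdm5d at 12.6 CPM, against 16.7 and 14.7 CPM. Whether a library holds RNA of more than 1 animal is not stated, and the part of this in the results was not tested.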
